A study of Rattus norvegicus with 6 samples.

Results

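The miR-29 family was examined in rat myocardium 4 weeks after surgery. Its members were taken by name, as every rat miRNA probe set called miR-29a, miR-29b or miR-29c on either arm of the precursor. This gave 7 mature miRNAs of the 758 on the array, read by 20 of its 1806 probes. They are the 3 guide strands rno-miR-29a-3p, rno-miR-29b-3p and rno-miR-29c-3p (the prefix, for rat, is left out below), and the 4 opposite arms miR-29a-5p, miR-29b-1-5p, miR-29b-5p and miR-29c-5p. Guide strand is used here for the 3p arm, from which the family takes its common seed.

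Male Sprague-Dawley rats of unstated age were anaesthetized with sodium pentobarbital and their chests opened in both groups. In the model group, a ligature closed the left anterior descending coronary artery to give acute myocardial infarction (MI). In the control group (sham-operated, Non-MI), a thread was passed and left untied. Total RNA from 3 tissue samples per group was hybridized to 6 single-colour Agilent Rat miRNA arrays. The labels place the model tissue in the infarct marginal zone and call the control tissue only myocardium, so that MI and the part of the ventricle sampled cannot be told apart.

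MiRNAs bind target messenger RNAs mainly through their seed, bases 2 to 8, and lower the amount or translation of those targets. The miR-29 family is known for repressing genes of the extracellular matrix, among them the fibrillar collagens, elastin and fibrillin. It is made by cardiac fibroblasts as well as cardiomyocytes, and transforming growth factor beta is known to lower it in fibroblasts. The comparison between model and control tissue asked how the family stood in the fibrosis that follows MI, the topic of the study.

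The mature sequences, from RefSeq (GRCr8), are shown because they set what the members share and where they part. Capitals mark the seed.
miR-29a-3p: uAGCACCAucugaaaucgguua
miR-29b-3p: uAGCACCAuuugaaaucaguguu
miR-29c-3p: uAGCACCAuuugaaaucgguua
The seed is the same in all 3 guide strands. Among the 685 array miRNAs matched to RefSeq by name, it occurred in 0 outside the family. Counted from the 5′ end, miR-29c-3p differed from miR-29a-3p by C10U alone, with 21 of 22 bases identical. Against miR-29a-3p, miR-29b-3p carried C10U, G18A, U21G and A22U and 1 further base at its 3′ end. The final bases AGUGUU of miR-29b-3p, known as a signal for import into the nucleus, were in neither of the other guide strands. How far each probe also reads the other guide strands was not measured by these arrays.

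The opposite arms have seeds of their own. They are shown because 1 of them, miR-29c-5p, could be compared with the guide strand of its own precursor.
miR-29c-5p: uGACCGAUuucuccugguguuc
miR-29a-5p: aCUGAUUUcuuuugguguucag
miR-29b-1-5p: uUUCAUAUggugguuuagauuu
miR-29b-5p: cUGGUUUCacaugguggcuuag

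The family comes from 4 precursors in 2 pairs. Mir29a (mature guide at chr4:60617968-60617989, minus strand) lies 291 bases from Mir29b1 (guide at chr4:60618342-60618364, minus strand). Mir29b2 (guide at chr13:109098882-109098904, plus strand) lies 447 bases from Mir29c (guide at chr13:109099412-109099433, plus strand), and both overlap the long noncoding RNA LOC102550527. RefSeq lists 0 genes between the precursors of either pair. Both Mir29b1 and Mir29b2 give the same miR-29b-3p, so its signal cannot be assigned to one pair, whereas miR-29a-3p comes from the chromosome 4 pair and miR-29c-3p from the chromosome 13 pair.

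All 3 guide strands and miR-29c-5p were detected on all 6 arrays, detection meaning a probe signal over 3 times its error. The arms miR-29a-5p, miR-29b-1-5p and miR-29b-5p were detected on 0 of 6 arrays, and their highest probe signals were 0.612, 0.253 and 0.159, at most 1.27 times the error. For scale, the lowest total signal of any detected miRNA was between 1.16 and 1.60. No fold change was therefore computed for these 3 arms. RefSeq also annotates a miRNA on the opposite strand across 3 of the guides, and these were looked up after the values were seen. The letters of miR-3556a, miR-3587 and miR-3556b are fully complementary to miR-29a-3p, miR-29b-3p and miR-29c-3p over 18, 21 and 20 bases. All 3 were on the array and detected on 0 of 6 arrays, with a highest probe signal of 0.358.

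The detected arms were each read by 2 probes with 8 spots per probe. Replicate spots of a probe agreed closely for the guide strands, with a coefficient of variation between 0.748% and 5.44% over arrays and probes. The spread was wider for miR-29c-5p, at 1.71% to 25.9%, and its probe signals were 3.79 to 9.07 times their error. No spot of the family was saturated. In the following, total signal is the sum of a miRNA's detected probes in scanner units, and scaled signal is log2 of that total after division by a factor for each array, the upper quartile (75th percentile) over the 198 miRNAs that every array detected. Control arrays had factors of 145, 189 and 146, and model arrays 203, 193 and 168. Signals of different miRNAs are not set against each other, since probes differ in brightness.

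Compared with the control group, no arm of the family passed the test in the model group. The miR-29c arms had the lowest estimates, at about 0.78 of the control level for miR-29c-3p and 0.69 for miR-29c-5p, while miR-29a-3p and miR-29b-3p lay near the median over detected miRNAs. In limma with Benjamini-Hochberg adjustment, 0 of the 4 arms tested had an adjusted p under 0.05, beside 22.9% of the 214 miRNAs tested. Without adjustment, 2 of the 4 arms, both from Mir29c, had a limma p under 0.05, beside 37.9% of the miRNAs tested. These are bulk samples, in which fewer cells of a type and less RNA per cell cannot be told apart. The labels give replicate numbers but name no animals, so the p-values measure the spread between these samples.

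MiR-29c-3p had total signals of 442, 661 and 398 in the control samples and 478, 418 and 451 in the model samples. After scaling, the control samples were at 1.61, 1.81 and 1.45 and the model samples at 1.23, 1.12 and 1.42. All 3 model samples lay below all 3 control samples, with the highest model sample, replicate 3, just under the lowest control sample, also replicate 3. Groups were separated in this direction for 30.8% of the miRNAs tested. The log2 fold change was -0.36 (SE 0.13, 95% interval -0.68 to -0.048, n = 3 per group), with a limma p of 0.0306 and an adjusted p of 0.102. The exact two-sided permutation test gave p = 0.10, the smallest that 3 samples against 3 allow. Its 2 probes gave nearly the same difference, at -0.37 and -0.36, and the groups were separated on each probe. The adjusted p fell below 0.05 under 4 of 21 other ways of processing the data, and the estimate was below 0 under all 21, from -0.55 to -0.025. Some of these ways alter only the filter or the test and leave the estimate as it was. Of the 4, quantile normalization and the authors' normalized values gave nearly the same estimate (-0.54 and -0.55). Another, normexp background correction, gave all 4 arms 1 common SE, so its p-value does not measure the spread of miR-29c-3p alone.

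MiR-29c-5p, the other arm of the same precursor, was a dim miRNA with total signals of 19.9, 29.3 and 15.7 in the control samples and 18.4, 14.2 and 19.0 in the model samples. Its scaled signals were -2.86, -2.69 and -3.21 against -3.47, -3.76 and -3.15. Control replicate 3 fell below model replicate 3, so the groups overlapped. The log2 fold change was -0.54 (SE 0.20, 95% interval -1.04 to -0.036, n = 3 per group), with an adjusted p of 0.121 by limma and an exact permutation p of 0.2. The dimmer of its 2 probes gave -0.73 and the brighter -0.46, so the estimates of the probes differed more here than for the guide strands. It was called under 0 of the 21 alternatives, with estimates from -0.71 to -0.20.

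The 2 arms of Mir29c ranked the samples in almost the same order. In both, control replicate 2 was highest, control replicate 1 next, and model replicate 2 lowest, and only control replicate 3 and model replicate 3 changed places. Pearson's r between their scaled signals over the 6 arrays was 0.985, and 0.930 before scaling. It is given as a description with no p, because both arms on an array are divided by the same factor and the arrays fall into 2 groups.

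MiR-29a-3p had total signals of 1389, 1854 and 1076 in the control samples and 1527, 1664 and 1383 in the model samples. The scaled signals were 3.26, 3.29 and 2.89 against 2.91, 3.11 and 3.04, and all 3 model samples lay within the range of the control samples. The log2 fold change was -0.13 (SE 0.13, 95% interval -0.46 to 0.20, n = 3 per group), with a limma adjusted p of 0.486 and an exact permutation p of 0.5. Its probes gave -0.12 and -0.13. Control replicate 3 was the lowest of the 6 samples, and without it the estimate was -0.27, with a limma adjusted p of 0.105.

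MiR-29b-3p had total signals of 684, 873 and 567 in the control samples and 824, 771 and 613 in the model samples. The scaled signals were 2.24, 2.21 and 1.96 against 2.02, 2.00 and 1.86. Control replicates 1 and 2 were above every model sample, whereas control replicate 3 lay among them. The log2 fold change was -0.17 (SE 0.10, 95% interval -0.43 to 0.082, n = 3 per group), with a limma adjusted p of 0.257 and an exact permutation p of 0.3. Without control replicate 3 the estimate was -0.28, with a limma adjusted p of 0.0843. With no scaling between arrays the estimates of miR-29a-3p and miR-29b-3p changed sign, to 0.11 and 0.067, and with the gene totals as deposited to 0.21 and 0.17.

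**Figure D1:**
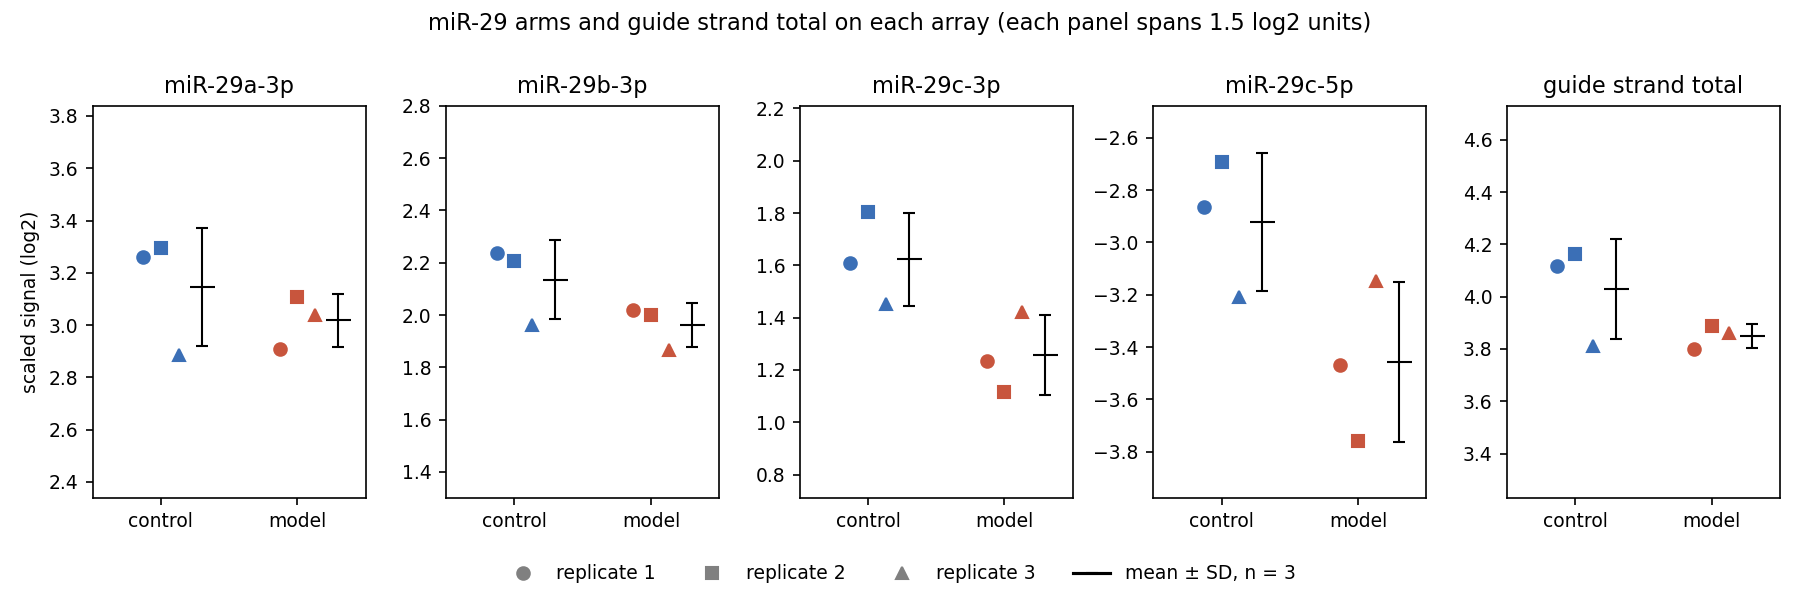
Scaled signal (log2 units, vertical axis) of the 4 detected miR-29 arms and of the guide strand total on each control and model array, with 1 marker shape per replicate number and bars for mean ± SD (n = 3). The 3 model samples of miR-29c-3p lie below all 3 control samples, whereas those of miR-29a-3p lie within the control range.

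The guide strand total, the sum of the 3 guide signals, is weighted toward the members with the brightest probes. It was 2515, 3388 and 2041 in the control samples and 2829, 2853 and 2446 in the model samples. After scaling it was 4.12, 4.16 and 3.81 against 3.80, 3.89 and 3.86. The 3 model samples were close together (SD 0.045) and the control samples were spread (SD 0.19), with control replicate 3 beside the model samples. The log2 difference was -0.18 (SE 0.11), or 0.882 of the control level, and no p is given for a sum over the members. Without control replicate 3 it was -0.31 and the groups were separated. With all 6 arrays kept, the model samples also lay below the control samples in the authors' normalized values (-0.23). The same held when the upper quartile was taken over all miRNAs (-0.31), and after quantile normalization (-0.24). In every other setting run for the total, the groups overlapped, and the difference was above 0 with no scaling (0.061) and with gene totals as deposited (0.16).

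The shift of the whole array bears on how these values read. Over the 198 miRNAs present on every array, log2 fold changes had a median of -0.15, and 66.7% of them were below 0. The direction of that shift depends on the scaling, since the median was 0.092 with no scaling and 0.15 with gene totals as deposited. Relative to that median, miR-29a-3p stood at 0.021 and miR-29b-3p at -0.026. MiR-29c-3p stood at -0.22 and miR-29c-5p at -0.39. Of the 198 miRNAs, 25.3% had a lower log2 fold change than miR-29c-3p and 11.1% a lower one than miR-29c-5p, beside 52.5% for miR-29a-3p and 46.5% for miR-29b-3p. Under each of the 21 alternatives both miR-29c arms remained below the median of that setting. Several of these could not alter that position. The detection filters, the methods' t-test, the intensity trend and the replicate block left the estimates and the median as they were. No scaling, the 75th percentile of all miRNAs and median centring mainly move all miRNAs of an array together, and miR-29c-3p stayed at -0.22 from the median.

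**Figure D2:**
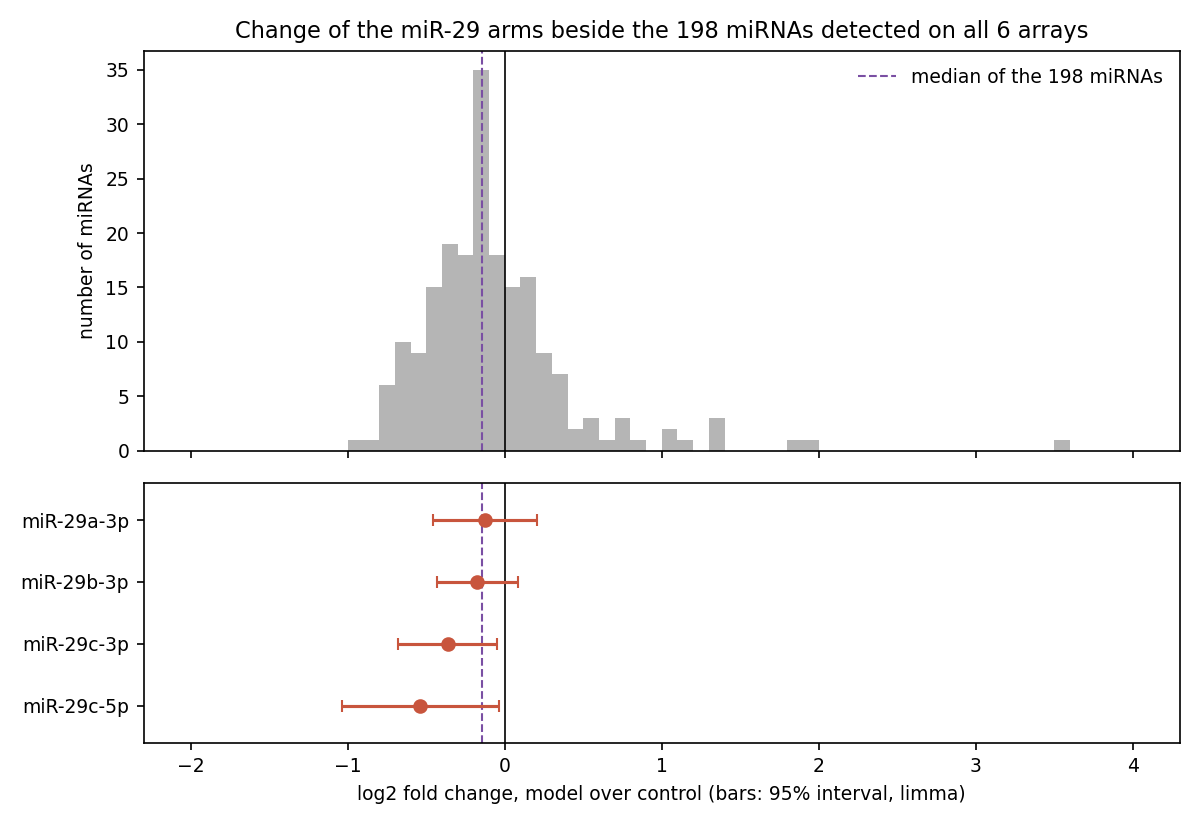
Upper panel, number of miRNAs (vertical axis) by log2 fold change, model over control, for the 198 miRNAs that every array detected. Lower panel, the same scale with the estimates of the 4 detected miR-29 arms and their 95% limma intervals, in which miR-29a-3p and miR-29b-3p lie at the median (dashed line, -0.15) and both miR-29c arms to the left of it.

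Whether the members changed differently from each other was tested directly, on ratios within an array, which a scaling factor does not alter. The level of such a ratio depends on the probes, and only its change between groups is read. The signal of miR-29a-3p over that of miR-29c-3p was 3.14, 2.81 and 2.70 in the control samples and 3.20, 3.98 and 3.07 in the model samples. Model replicate 2 was highest, and model replicate 3 lay below control replicate 1. The log2 difference was 0.24 (SE 0.13), with an exact permutation p of 0.2 and 0.4 after adjustment over the 4 pairs compared. For miR-29b-3p over miR-29c-3p it was 0.19 (SE 0.15, exact permutation p 0.3, adjusted 0.4), and for miR-29a-3p over miR-29b-3p 0.047 (SE 0.099, exact permutation p 0.7, adjusted 0.7). With 3 arrays per group this test cannot give a p under 0.10, so it cannot show whether the guide strands changed alike. The estimates also moved with single arrays. The difference for miR-29a-3p over miR-29c-3p was 0.12 without model replicate 2, and that for miR-29b-3p over miR-29c-3p was 0.10 without model replicate 2 and 0.32 without model replicate 3. Quantile normalization gave 0.41 and 0.29 for these pairs, and the authors' normalized values gave 0.45 and 0.30.

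The opposite arm was also set against its own guide strand. The signal of miR-29c-5p over that of miR-29c-3p was 0.0451, 0.0443 and 0.0395 in the control samples and 0.0384, 0.0340 and 0.0421 in the model samples. The groups overlapped through model replicate 3, and the log2 difference was -0.17 (SE 0.11, exact permutation p 0.2, adjusted 0.4). This difference turned positive under 3 alternatives, at 0.044 with normexp background correction, 0.18 with quantile normalization and 0.19 with the authors' normalized values. The last 2 gave nearly the same values for both arms. Without model replicate 2 the difference was -0.092.

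**Figure D3:**
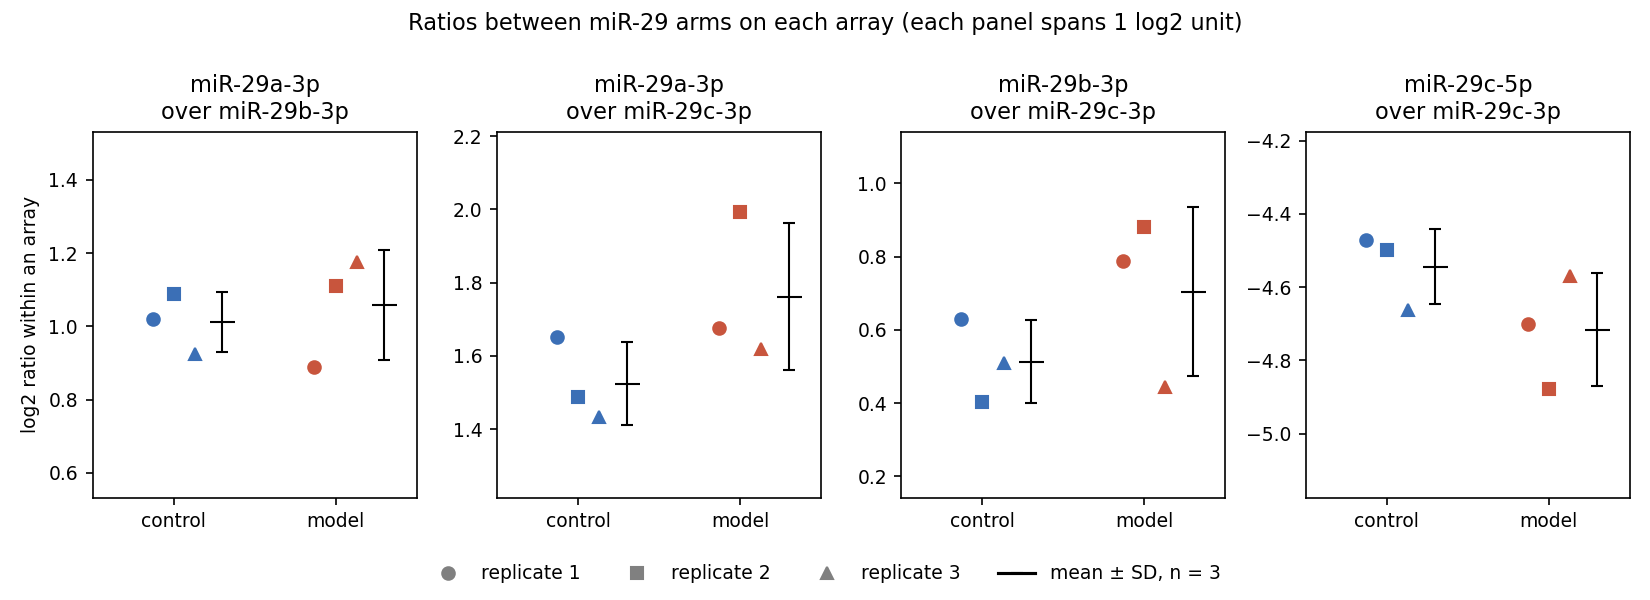
Log2 ratio between a pair of miR-29 arms within each array (vertical axis) for the 4 pairs compared, with 1 marker shape per replicate number and bars for mean ± SD (n = 3). Control and model samples overlap in every panel.

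The arrays lay in 2 rows of 1 slide. Row 1 held the 3 control samples and model replicate 1, and row 2 held model replicates 2 and 3, so that only row 1 compares the groups. Within it, which equals the estimate with the row as a block, the log2 fold change was -0.39 for miR-29c-3p (limma adjusted p 0.247) and -0.55 for miR-29c-5p (adjusted p 0.302). It was -0.24 for miR-29a-3p and -0.12 for miR-29b-3p. The model group has 1 array in row 1, and these p-values assume that it varies like the other samples, whose spread the fit used.

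**Figure D4:**
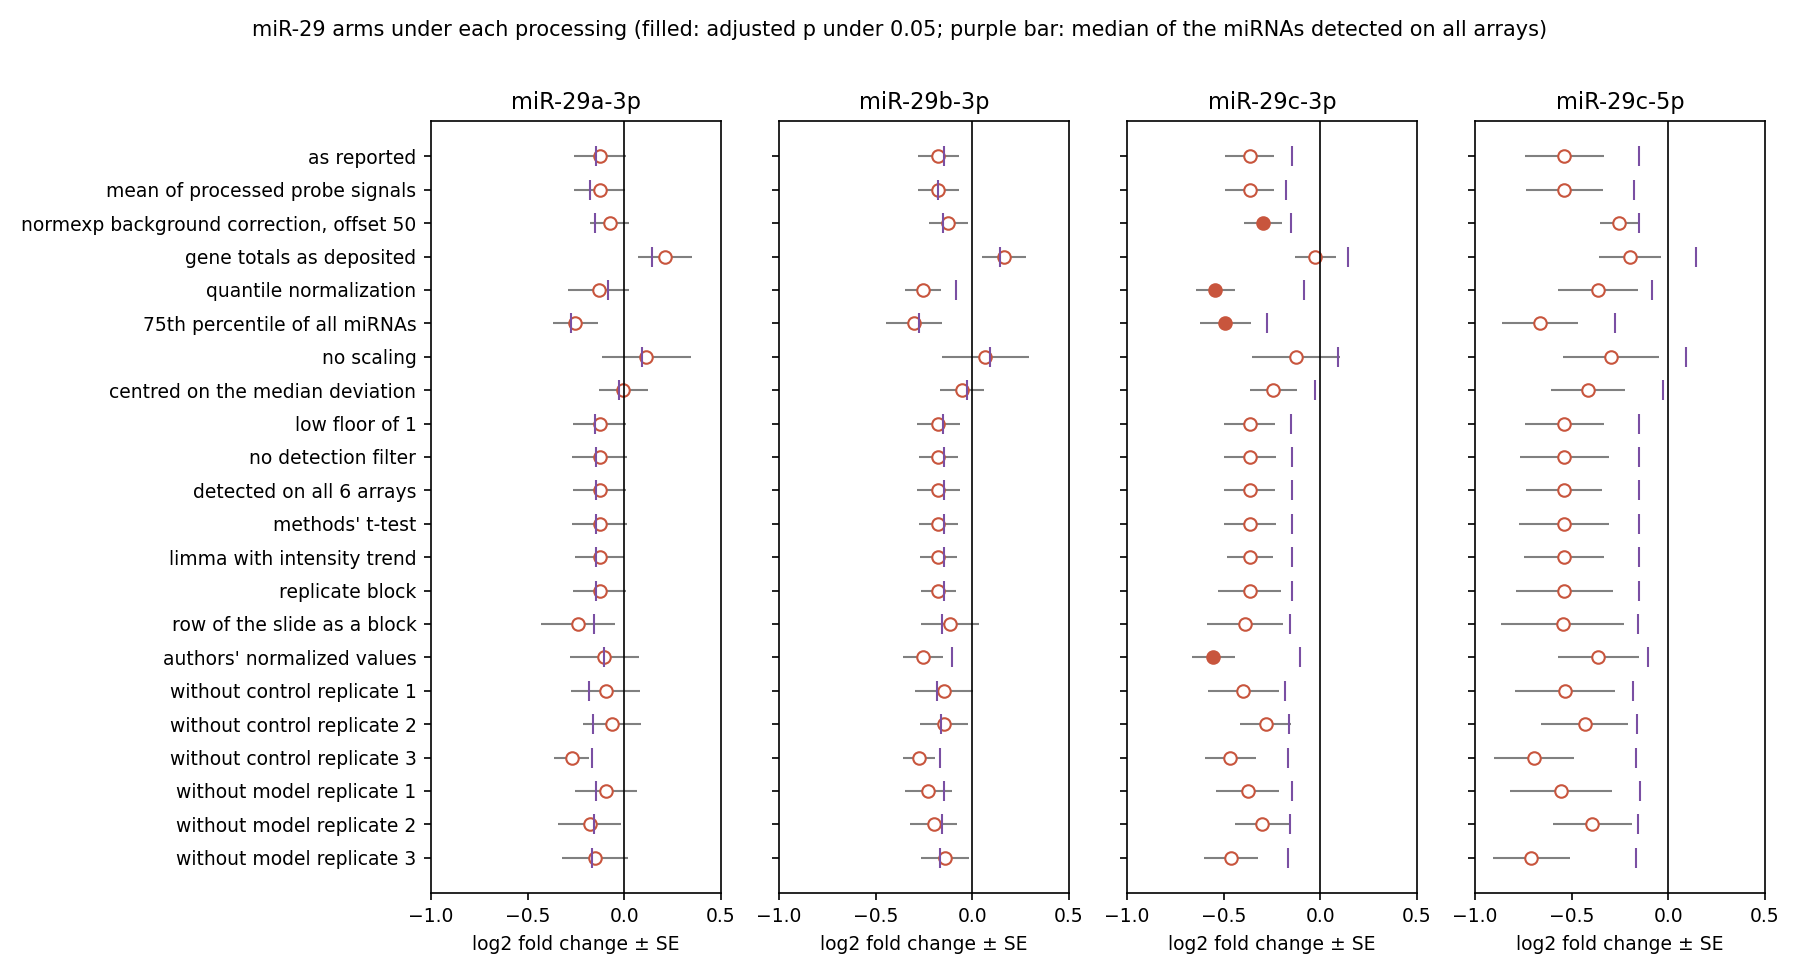
Log2 fold change ± SE (horizontal axis) of the 4 detected miR-29 arms as reported and under each of the 21 alternatives, 1 row per setting, with filled points for an adjusted p under 0.05 and a short vertical bar for the median over miRNAs that every array detected. The filled points, 4 in number, are all in the miR-29c-3p panel, and the points of both miR-29c arms lie left of the median in every row.

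Other miRNAs linked to cardiac fibrosis were compared by lists. Of 12 miRNAs known to restrain matrix genes in the heart, 4 were lower in the model group, 0 were higher and 8 did not pass the test, with a median log2 fold change of -0.45 and a range of -0.72 to 0.19. Those that fell were miR-133a-3p (-0.68) and miR-133b-3p (-0.72), muscle miRNAs that target connective tissue growth factor, and miR-30b-5p (-0.46) and miR-30e-5p (-0.61) of the miR-30 family, which shares that target. Over all miRNAs tested, 12.6% were called lower. The list also holds miR-30a-5p (-0.44), miR-30c-5p (-0.55) and miR-30d-5p (-0.45), so its members are not independent and its median leans on the miR-133 and miR-30 families. Its remaining members, miR-101a-3p, miR-101b-3p, miR-24-3p, miR-26a-5p and miR-26b-5p, ran from -0.20 to 0.19 and none was called. For miR-24-3p all model samples lay above all control samples. These calls did not hold when samples were left out, with 0 called lower without control replicate 1, 2 or 3 or without model replicate 1. The number lower was also 0 with no scaling, gene totals as deposited, no detection filter, the methods' t-test, the replicate block and the row as a block. With gene totals as deposited 1 member was called higher, and with median centring 1 was called higher and 1 lower. The list's median stayed below 0 under all 21 alternatives, some of which leave the estimates unchanged, from -0.57 to -0.11. The estimates of all 4 miR-29 arms lay inside the range of this list.

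Of 6 miRNAs known to promote fibrosis, 5 were tested, 3 were higher and 2 did not pass, with a median of 1.07 and a range of -0.87 (miR-208a-3p) to 1.95. Those that rose were miR-199a-5p (log2 fold change 1.95), miR-21-5p (2.15-fold higher), which restrains inhibitors of growth factor signalling in fibroblasts, and miR-155-5p (log2 fold change 1.07), an inflammatory miRNA. Over all miRNAs tested, 10.3% were called higher. MiR-155-5p was dim, with total signals of 3.04 to 5.69 in the control samples and 9.07 to 9.95 in the model samples. Its log2 fold change was -1.92 with gene totals as deposited, and it was also below 0 with normexp background correction. The 3 members called higher with gene totals as deposited therefore did not include it. Over the 21 alternatives the median ran from 0.082 (with normexp background correction) to 1.31 and the number called higher from 1 (no detection filter, or the row as a block) to 3. MiR-199a-5p, miR-21-5p and miR-155-5p are among the differentially expressed miRNAs that the study listed from the same samples, so their direction is not independent evidence.

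Cell type miRNAs moved between the groups beside the family. For scale, 12.6% of all miRNAs tested were called lower and 10.3% higher. The fibrosis lists above also hold miR-133a-3p, miR-133b-3p, miR-199a-5p, miR-155-5p, miR-208a-3p and miR-208b-3p, so the lists are not separate observations. Of 5 cardiomyocyte miRNAs tested, 3 were lower (miR-1-3p, miR-133a-3p and miR-133b-3p), and the summed scaled signal of the 4 found on every array was 6.84 to 7.11 in the control samples and 5.93 to 6.41 in the model samples. All 3 fibroblast or matrix miRNAs, miR-199a-5p, miR-199a-3p and miR-214-3p, were higher, at 1.95, 1.40 and 1.84, and their summed signal went from between 1.13 and 1.46 to between 2.71 and 3.21. They are the 2 arms of miR-199a and a member of the same miRNA cluster, so they are not 3 independent markers. Both endothelial arms of miR-126a were lower, and 1 of 2 red blood cell miRNAs tested was lower. Of 5 leukocyte miRNAs tested, 1 was higher, the dim miR-155-5p described above, and 1 lower. Of 2 smooth muscle miRNAs neither passed. MiR-208b-3p, miR-142-5p, miR-144-3p and miR-144-5p of these lists were detected on no array. With no scaling, gene totals as deposited, no detection filter or the replicate block, 0 members of the cardiomyocyte, endothelial and red blood cell lists were called lower. Without control replicate 1 the same lists had 0 called lower, and the cardiomyocyte list also had 0 without control replicate 2 or 3 or model replicate 1, with the methods' t-test and with the row as a block. The red blood cell list had 0 with the row as a block and with the authors' normalized values. The 3 fibroblast or matrix miRNAs, which the study also listed from these samples, were called higher under every alternative except no detection filter, where 2 were. The part of the cell type shifts in the miR-29 values was not tested.

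**Figure D5:**
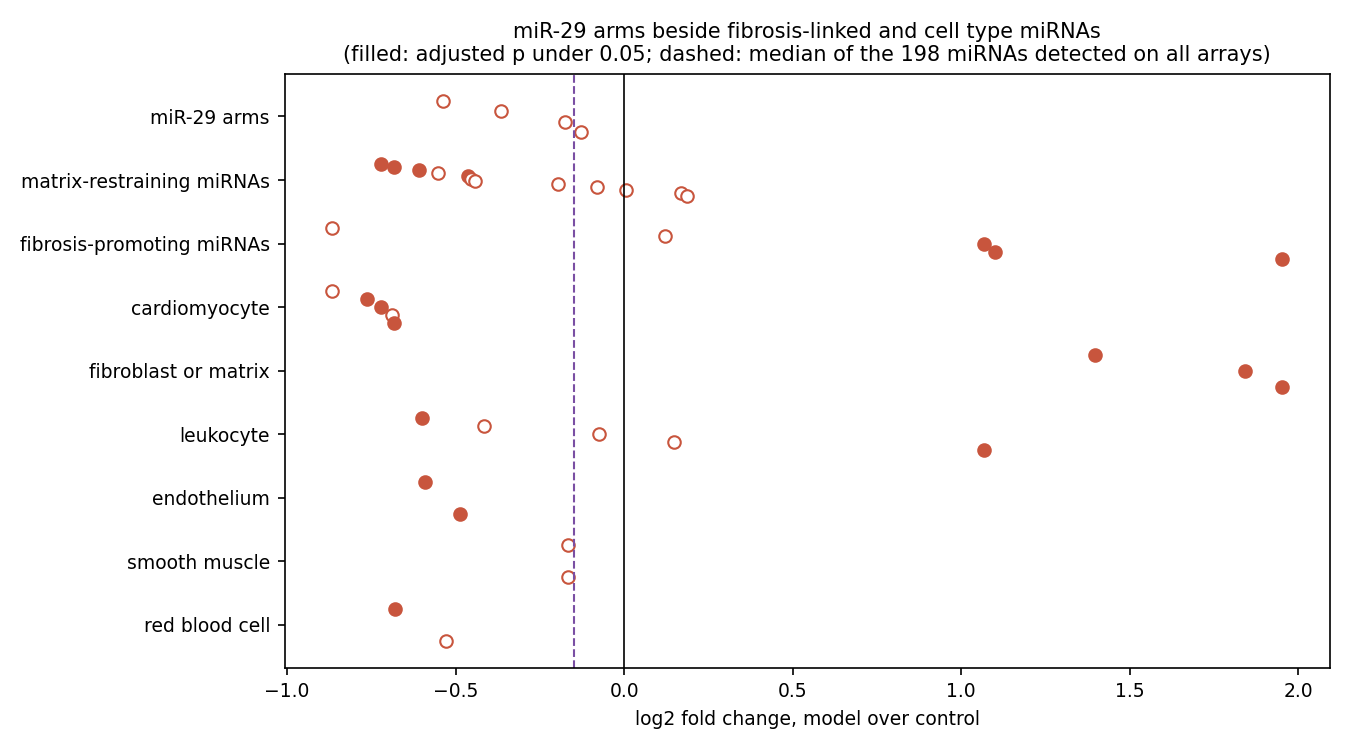
Log2 fold change, model over control (horizontal axis), of each tested miRNA of the lists and of the 4 detected miR-29 arms, 1 point per miRNA, filled where the limma adjusted p was under 0.05. The miR-29 points are open and lie between 0 and the lowest points of the matrix-restraining list, while the fibroblast or matrix points lie between 1.40 and 1.95.

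By their profile over the 6 arrays, the guide strands were set beside 194 other miRNAs that every array detected, and the 3 nearest are named for each. For miR-29a-3p these were miR-26b-5p, miR-26a-5p and miR-106b-5p, with Pearson's r of 0.955, 0.882 and 0.874. For miR-29b-3p they were miR-128-3p, miR-30b-3p and miR-26b-5p, with r of 0.898, 0.885 and 0.869. For miR-29c-3p they were let-7d-5p, miR-186-5p and miR-30a-5p, with r of 0.982, 0.973 and 0.967. Within the family, r was 0.767 between miR-29a-3p and miR-29b-3p, 0.621 between miR-29a-3p and miR-29c-3p and 0.630 between miR-29b-3p and miR-29c-3p. All are descriptions over 6 arrays, on each of which the miRNAs share a scaling factor, and they include the group difference, so no p is given.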

How the data were processed

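MiRNAs were measured in 6 myocardial samples, 3 per group by the labels. The authors deposited spot-level intensity values from Agilent Feature Extraction 10.7.1.1, background-subtracted and not scaled between arrays, and a table of normalized log2 values whose method is not given in the sources used here. The labels describe Cy3 labelling with a kit for amplified cRNA. Each array held 12128 miRNA spots, and 27.2% to 29.3% of miRNAs were detected. The number of arrays limits the precision. The deposited total differed from the sum of detected probes for 47 to 51 detected miRNAs per array (none of them in the miR-29 family), so totals were summed from distinct probes with a signal over 3 times their error. Totals were scaled to each array's upper quartile (75th percentile) over the 198 miRNAs that all arrays detected. A floor was set at log2 -6.50, the highest of the arrays' lowest detected values, and log2 was taken. The 214 miRNAs that were detected throughout either group entered lmFit and eBayes (limma 3.58.1, R 4.3.3) with Benjamini-Hochberg adjustment at 0.05. Single values and within-array ratios had exact permutation tests. Other steps used Python 3.11.15 with matplotlib 3.10.9, numpy 2.4.6 and pandas 2.3.3. The named miRNAs were all miR-29 arms, called members of the lists and the 3 nearest profiles of each guide strand. The members and lists were chosen with earlier results of these data known.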

Additional observations from a re-analysis of the deposited data

How the results depend on the processing

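Of 21 alternatives, miR-29c-3p passed the threshold under 4. These were normexp background correction (-0.30, limma adjusted p 0.0172) and quantile normalization (-0.54, 0.0256), with 2 more. The latter were scaling to the 75th percentile over all miRNAs (-0.49, limma adjusted p 0.0423) and the authors' normalized values (-0.55, 0.0309). With normexp the fit gave all 4 arms the same SE of 0.10. Its p-values thus rest on a spread pooled over miRNAs, not on that of miR-29c-3p. Quantile normalization and the authors' values gave nearly the same estimates for both miR-29c arms, so they count as hardly more than 1 alternative. MiR-29a-3p and miR-29b-3p turned positive with the gene totals as deposited (0.21 and 0.17) and with no scaling (0.11 and 0.067), as did the guide strand total (0.16 and 0.061). The difference in change of miR-29c-5p over miR-29c-3p turned positive with normexp (0.044), quantile normalization (0.18) and the authors' values (0.19), and that of miR-29a-3p over miR-29b-3p turned negative without model replicate 3 (-0.011, with a range of -0.011 to 0.13 over the samples left out). That of miR-29a-3p over miR-29c-3p was 0.12 to 0.31, that of miR-29b-3p over miR-29c-3p 0.10 to 0.32 and that of miR-29c-5p over miR-29c-3p -0.25 to -0.092 with 1 sample left out. Why was not tested. Leaving out 1 sample at a time gave -0.27 to -0.063 for miR-29a-3p, -0.28 to -0.14 for miR-29b-3p, -0.46 to -0.28 for miR-29c-3p, -0.71 to -0.39 for miR-29c-5p and -0.31 to -0.12 for the guide strand total, with no arm called. Over all miRNAs, 49 were called, 27 of them lower. The count was 19 with no scaling, 9 with no detection filter, 26 with the methods' t-test, 29 with the row as a block and 14 to 39 with 1 sample left out (14 without control replicate 1). The number lower was 1 with totals as deposited, 47 with the 75th percentile of all miRNAs, 16 with median centring, 3 with no detection filter, 11 with the methods' t-test, 14 with the authors' values and 2 to 21 with 1 sample left out. With no scaling limma called 0 lower, beside 4 at an unadjusted p under 0.05. A block on slide or scan was not run, as all arrays shared 1 slide and 1 scan.

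For samples with the same replicate number, deviations from the group means had correlations over miRNAs of -0.26, 0.032 and 0.24. Over all pairs of a control and a model sample they ran from -0.30 to 0.24, the highest being that of the replicates numbered 3. With so few samples this cannot show whether the numbers pair them, and the main fit used no pairing. The replicate block called 16 miRNAs, 4 of them lower, and 0 miR-29 arms (miR-29c-3p -0.36, limma adjusted p 0.237). The dimness of miR-29c-5p and the 3 samples per group limit what could be detected.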
